A study of Mus musculus with 6 samples.

Results

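Chemokines are small secreted proteins that draw leukocytes along a concentration gradient. The set described here holds 10 chemokine genes that carcinoma cells can make for monocytes, neutrophils and T cells: Ccl2, Ccl5, Ccl7, Ccl20, Cxcl1, Cxcl2, Cxcl5, Cxcl10, Cxcl16 and Cx3cl1. They were taken by symbol from a table of read counts for 55418 gene symbols, and all 10 were found there. RNA came from MOC2 cells, an oral squamous carcinoma line of the mouse that is negative for papillomavirus, grown as a monolayer without other cells. Of 6 libraries of polyadenylated RNA, 3 are labelled control CRISPR and 3 EphA4 knockout. The knockout-labelled cells are the H3 clone, so that group stands for 1 clone. No group was treated, a single batch label covers the 6 samples, their medium held serum, EGF, hydrocortisone and insulin, and the cells had been passaged 2 times after thawing. The comparison asks which chemokine transcripts differ between cells edited at the ephrin receptor gene Epha4 and control cells.

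Chemokines act on receptors with 7 membrane spans on the surface of leukocytes, and their classes are named by the spacing of the first cysteines of the mature protein. In CC chemokines these cysteines are adjacent, in CXC chemokines 1 residue lies between them, and in the CX3C chemokine 3 residues do. CXC chemokines that carry the residues glutamate, leucine and arginine (ELR) just before the first cysteine bind CXCR2 and attract neutrophils, while Cxcl10, which lacks them, binds CXCR3 on activated T cells and natural killer cells. Many of these genes are switched on by NF-kB after signals such as TNF and IL-1, and some, Cxcl10 and Ccl5 among them, also by interferons. Carcinoma cells are a known source of chemokines for tumour-infiltrating myeloid cells.

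The coding stretches around the first cysteines show the classes that the members belong to. Each starts 6 codons before the first cysteine codon, the cysteine codons of the class motif are in capitals, and all were read from the coding transcripts of GENCODE release M21.
Ccl2: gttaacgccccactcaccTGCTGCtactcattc
Ccl5: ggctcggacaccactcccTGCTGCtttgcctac
Ccl7: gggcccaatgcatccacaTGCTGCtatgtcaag
Ccl20: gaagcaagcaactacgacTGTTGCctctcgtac
Cxcl1: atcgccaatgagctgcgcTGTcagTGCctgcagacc
Cxcl2: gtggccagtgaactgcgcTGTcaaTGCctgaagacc
Cxcl5: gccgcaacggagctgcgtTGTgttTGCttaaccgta
Cxcl10: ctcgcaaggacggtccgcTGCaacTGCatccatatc
Cxcl16: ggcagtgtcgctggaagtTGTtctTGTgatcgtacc
Cx3cl1: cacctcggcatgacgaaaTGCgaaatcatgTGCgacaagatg
The motif began at codon 30 (Cxcl10) to codon 53 (Cxcl5) of the coding sequences. The 3 codons before the first cysteine spelled ELR in Cxcl1, Cxcl2 and Cxcl5, and in no other member of the set.

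The edited gene's own transcript went against the label. Epha4 had 1907, 2110 and 2250 counts in the control libraries and 3483, 3815 and 3606 counts in the libraries labelled EphA4 knockout. The knockout-labelled libraries were all above the control libraries, and edgeR gave a log2 fold change of 0.86 with an SE of 0.06 and an adjusted p of 2.1e-06. Gene-level counts say nothing of the edited site itself, nor of EphA4 protein. All directions below are therefore those of the libraries labelled EphA4 knockout against control, and not of a loss of Epha4 transcript.

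Library totals ran from 35115926 to 41775031 counts, and levels are given as CPM (counts scaled to a common library size), where 1 count equals 0.0239 to 0.0285 CPM. Of 15199 genes tested, 38.8% were called lower and 32.7% higher at an adjusted p of 0.05, and the median log2 fold change over all of them was -0.04, so a called gene is by itself an ordinary event in this comparison. EphA4 knockout replicate 3 stood apart, where processed pseudogenes took 1.41% of the counts, beside 0.255% to 0.307% elsewhere, and results are given without it where it matters. Of 16 genes listed as squamous epithelial markers, the keratin genes Krt8 and Krt18, Epcam and Cdh1 were abundant in both groups. The basal markers Krt5 and Trp63 were nearly absent, with 0 to 2 counts in any library. Separate cultures are not named for the libraries of a group, and the p-values reflect the spread between these libraries alone, which may be technical.

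All 10 chemokine transcripts were lower in the libraries labelled EphA4 knockout, by 2.63-fold for Cxcl16 up to 1721-fold for Ccl2, whose size rests on 12 remaining counts. Each of the 10 passed the filter on low counts and was called lower in edgeR's quasi-likelihood test, against a background of 38.8% of the tested genes. Ccl2, Ccl5, Ccl7 and Cxcl10 passed the filter through their control counts alone, so the filter largely fixed their direction. The groups did not overlap for any of them: every control library was above every knockout-labelled one in 10 of 10, which held for 41.4% of the tested genes, and the reverse held for 0 of 10 and for 34.6% of the tested genes. The median log2 fold change of the 10 was -4.22, beside -0.04 over all tested genes. A call with a log2 fold change of -1 or less was found for 10 of 10, against 20.1% of the tested genes. A call at -3 or less was found for 7 of 10, against 7.99% of the tested genes, and one of -5 or less for 4 of 10, against 3.91%. These 4 are the members that passed the filter through their control counts alone, so the share of 3.91% is no even yardstick for them. In RNA from a whole culture, fewer cells that make a chemokine and less of its RNA per cell cannot be told apart.

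**Figure D1:**
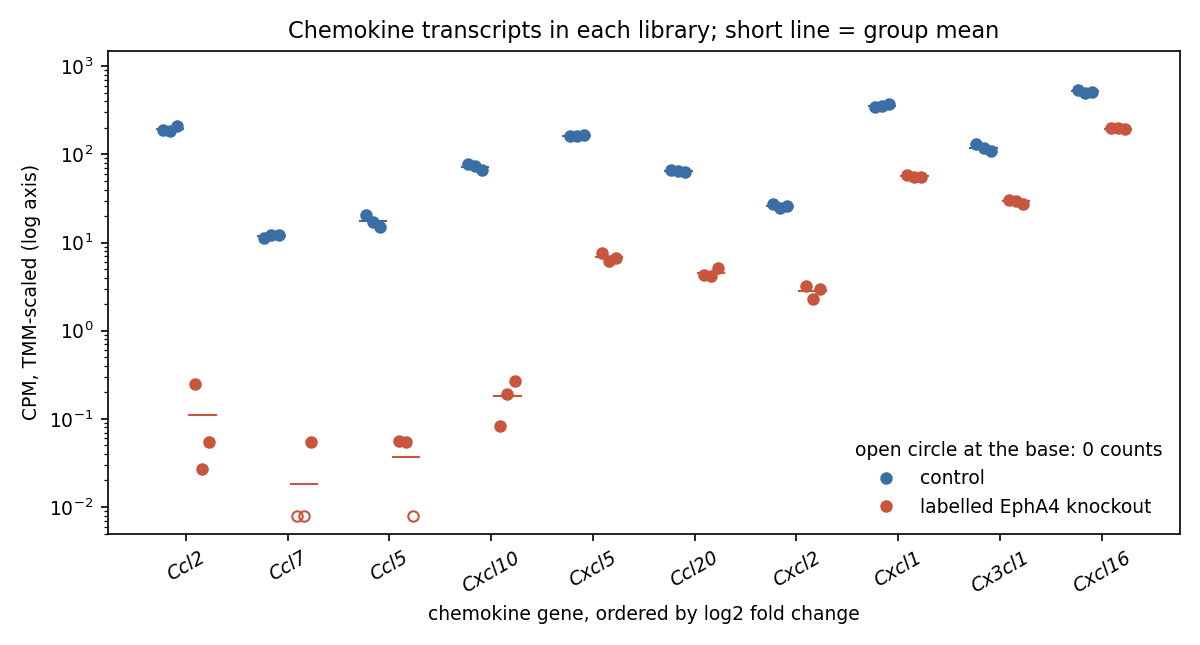
Level of the 10 chemokine transcripts in each library, in TMM-scaled CPM on a log axis, with control libraries in blue, libraries labelled EphA4 knockout in red, the group mean as a short line and open circles at the base for 0 counts. Every control point lies above every knockout-labelled point of the same gene, and Ccl2, Ccl7, Ccl5 and Cxcl10 lie below 0.3 CPM in the knockout-labelled libraries.

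The CCR2 ligand genes Ccl2 and Ccl7 were almost absent from the knockout-labelled libraries. Ccl2, the main ligand of CCR2 and a monocyte attractant, had 7029, 6427 and 8841 counts in the control libraries and 9, 1 and 2 counts in the knockout-labelled ones. Its level went from 195 ± 15.7 CPM to 0.11 ± 0.12 CPM (SD, n = 3 each), or -10.75 as log2 fold change (SE 0.20, adjusted p = 1.8e-09). As a ratio of summed counts per total this is 1795-fold, with a 95% exact binomial interval of 1028 to 3475 that covers counting error only. Of the 12 remaining counts 9 were in EphA4 knockout replicate 1, and without that library the ratio was 4843-fold, with a wider interval of 1657 to 23490. Without replicate 2 it was 1300-fold (interval 726 to 2605), and without replicate 3 it was 1426-fold (interval 775 to 2974).

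Ccl7, which shares CCR2 with Ccl2 and is its direct neighbour on chromosome 11, had 414, 434 and 514 counts in control and 0, 0 and 2 counts in the knockout-labelled libraries. Both of its remaining counts were in EphA4 knockout replicate 3. The ratio was 658-fold (95% counting interval 182 to 5439), the fitted log2 fold change was -9.11 (SE 0.54, adjusted p = 7.4e-07), and without replicate 3 the transcript was lower by at least 290-fold, with 3 counts over the group as the floor. The fitted value depends on how so few counts are smoothed, and the counting intervals of Ccl7 and Ccl2 overlap.

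Ccl5 and Cxcl10, which attract T cells among other cells, were also below 0.3 CPM in the knockout-labelled libraries. Ccl5, which attracts T cells and monocytes, had 755, 610 and 630 counts in control and 2, 2 and 0 counts in the knockout-labelled libraries. Its log2 fold change was -8.78 (SE 0.41, adjusted p = 1.7e-07), a count ratio of 482-fold (95% counting interval 188 to 1770). Without EphA4 knockout replicate 3, the library with 0 counts, the ratio was 319-fold.

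Cxcl10, the interferon-induced ligand of CXCR3, had 2860, 2587 and 2785 counts in control and 3, 7 and 10 counts in the knockout-labelled libraries. The level went from 72.4 ± 5.21 to 0.18 ± 0.09 CPM (SD, n = 3 each), for a fitted log2 difference of -8.60 (SE 0.18, adjusted p = 2.6e-09) and a count ratio of 398-fold (95% counting interval 257 to 651.5). Leaving out 1 knockout-labelled library moved this ratio between 315.5-fold and 526.5-fold. Annotated exons of Art3 overlap Cxcl10 on the other strand, and the strand setting of the counting is not given, but Art3 itself had 0 to 9 counts per library.

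Neutrophil attractants with the ELR motif fell less, and by different amounts. Cxcl1, a ligand of CXCR2, had 347, 350 and 370 CPM in control and 58.5, 55.3 and 55.8 CPM in the knockout-labelled libraries, and was 6.29-fold lower (log2 fold change -2.65, SE 0.04, adjusted p = 8.4e-10). Cxcl2, its close relative and neighbour on chromosome 5, had 27.4, 24.8 and 26.1 CPM in control and 3.24, 2.30 and 2.97 CPM in the knockout-labelled libraries. It was 9.18-fold lower (log2 fold change -3.20, SE 0.14, adjusted p = 1.2e-07).

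Cxcl5, the epithelial member of the ELR chemokines, had 163, 161 and 167 CPM in control and 7.52, 6.21 and 6.64 CPM in the knockout-labelled libraries. It was 24.1-fold lower (log2 fold change -4.59, SE 0.07, adjusted p = 8.4e-10). These folds rest on far more remaining reads than those of Ccl2, Ccl7, Ccl5 and Cxcl10. The summed counts of the knockout-labelled group were 6185 for Cxcl1, 310 for Cxcl2 and 742 for Cxcl5.

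Ccl20, the ligand of CCR6 on Th17 cells and immature dendritic cells, lay within the range of the ELR chemokines. It had 2473, 2318 and 2619 counts in control and 154, 156 and 187 counts in the knockout-labelled libraries. The level went from 65.1 ± 2.00 to 4.54 ± 0.48 CPM (SD, n = 3 each), 14.3-fold lower (log2 fold change -3.84, SE 0.08, adjusted p = 3.3e-09).

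The membrane-bound chemokines kept the largest shares of their control level. Cxcl16 and Cx3cl1 (fractalkine) carry their chemokine domain on a mucin stalk at the cell surface, from which ADAM proteases release it, and bind CXCR6 and CX3CR1. Cxcl16 had 535, 502 and 517 CPM in control and 199, 199 and 192 CPM in the knockout-labelled libraries, 38.0% of the control mean (log2 fold change -1.40, SE 0.04, adjusted p = 9.1e-09). Cx3cl1 had 130, 120 and 109 CPM in control and 30.5, 29.5 and 27.7 CPM in the knockout-labelled libraries, 24.5% of the control mean (log2 fold change -2.03, SE 0.07, adjusted p = 4e-08). Both groups of values were tight and far apart for each gene. Exons of Zmynd15 overlap Cxcl16 on the other strand, with 228 to 256 counts per control library against 17724 to 21544 for Cxcl16.

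**Figure D2:**
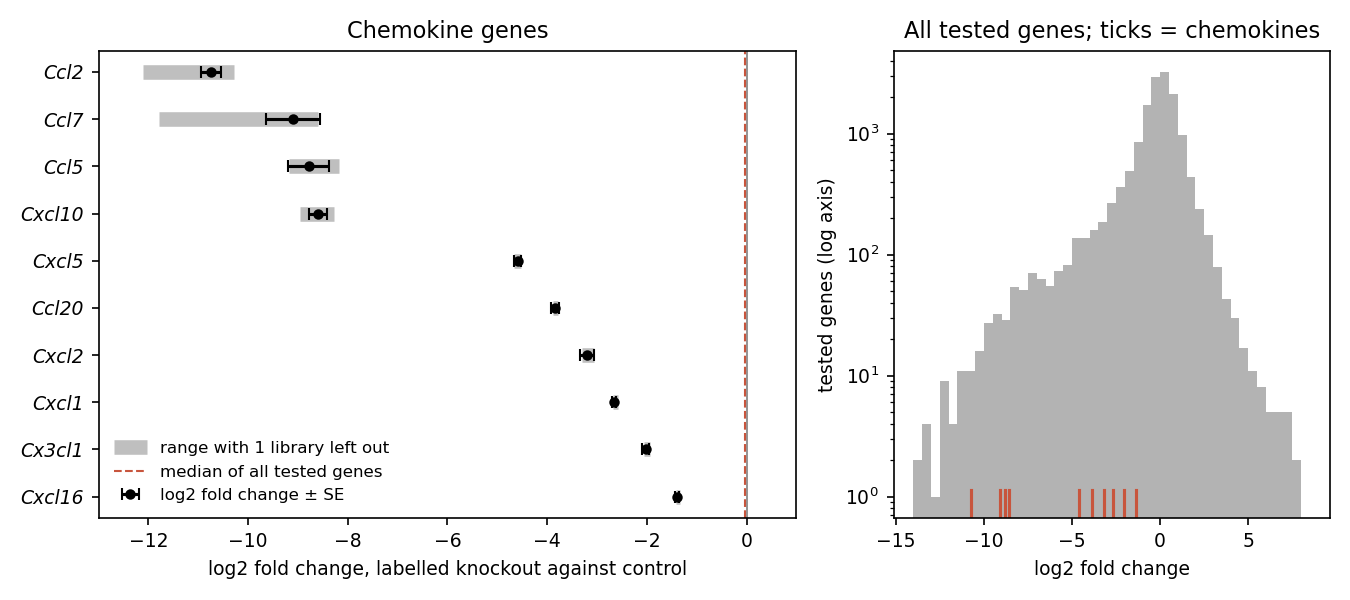
Left, log2 fold change of each chemokine with its SE (black) and the range when each library is left out (grey bars). Right, the log2 fold changes of all tested genes as a histogram with a log count axis and the 10 chemokines as ticks; the 10 lie from -1.40 to -10.75, in the lower tail, while the median of all genes is -0.04.

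Per transcript length, the make-up of the chemokine set differed between the groups. Levels in TPM (counts per transcript length, scaled to a common sum) were computed with the length of the coding transcript in GENCODE M21, since levels of different genes compare only per length. In control libraries the order by mean TPM was Cxcl1 (773), Ccl2 (495), Cxcl16 (397), Cxcl5 (215), Cxcl10 (137), Ccl20 (95.1), Cx3cl1 (74.5), Ccl5 (68.5), Cxcl2 (48.6) and Ccl7 (30.8). Among neighbours in this order only Cx3cl1 and Ccl5 overlapped between libraries. With the joined length of all exons instead, the neighbours Ccl2 and Cxcl16, Cxcl10 and Ccl20, and Cxcl2 and Ccl7 changed places. In the knockout-labelled libraries the order by mean TPM was Cxcl16 (165), Cxcl1 (134), Cx3cl1 (19.9), Cxcl5 (9.73), Ccl20 (7.22) and Cxcl2 (5.77), and then Cxcl10, Ccl2, Ccl5 and Ccl7, all below 0.4 and overlapping with their neighbours.

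The summed level of the 10 chemokines was 2338, 2315 and 2353 TPM in control and 354, 345 and 328 TPM in the knockout-labelled libraries. Ccl2 made up 20.4% to 22.6% of that sum in control and at most 0.199% in the knockout-labelled libraries. Cxcl16 went the other way, from 16.6% to 17.5% of the sum in control to 47.3% to 49.2%, although its own level was lower. Cxcl1 held 32.1% to 33.7% in control and 38.7% to 39.5% in the knockout-labelled libraries, so that Cxcl16 and Cxcl1 were the bulk of what remained.

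**Figure D3:**
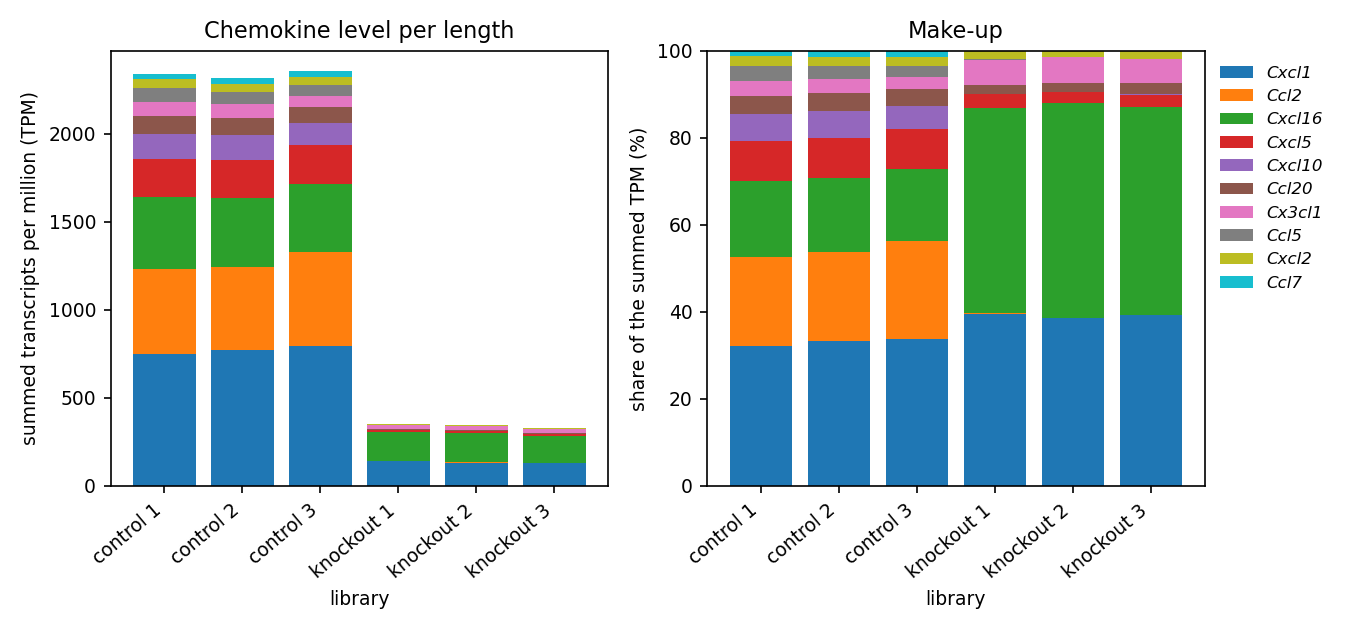
Left, summed TPM of the 10 chemokines in each library, stacked by gene, from 2315 to 2353 in control and from 328 to 354 in the knockout-labelled libraries. Right, the same as shares of the sum, where the orange band of Ccl2 is present in the control libraries and all but gone in the others, and the green band of Cxcl16 is wider there.

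Most chemokine genes lie in clusters, and neighbours within a cluster were read next to one another. On chromosome 5 the run from Cxcl5 over Ppbp, Pf4, Cxcl3 and Cxcl15 to Cxcl1 and Cxcl2 was lower throughout where it was tested, with log2 fold changes of -4.59 for Cxcl5, -1.30 for Ppbp, -2.65 for Cxcl1 and -3.20 for Cxcl2, while Cxcl3 was at 0 counts in the knockout-labelled libraries. The genes that follow Cxcl2 were not lower. Mthfd2l, Epgn, Ereg and Btc did not pass the test, with log2 fold changes of 0.16, -0.55, 0.19 and 0.11, and Areg, the gene of the EGF receptor ligand amphiregulin, rose by a log2 fold change of 0.38. On the other side, Rassf6 fell, by 0.98 on the log2 scale, and Afp, farther out, rose (log2 fold change 1.30).

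Around Cxcl10, farther along chromosome 5, the near protein-coding neighbours Nup54 and Sdad1 rose (log2 fold changes 0.21 and 0.70) while Scarb2, Naaa and Stbd1 fell (-0.84, -0.99 and -1.92). Cxcl9, another interferon-induced CXCR3 ligand of that cluster, had 3, 5 and 3 counts in control and 0 in the knockout-labelled libraries, too few to be tested. Only genes annotated as protein-coding were read as neighbours, and Cxcl11, which was lower (log2 fold change -6.37), was not among those read. On chromosome 11, Ccl11 and Ccl8 beside Ccl2 and Ccl7 had at most 6 counts in any library, and Ccl12 and Ccl1 had none. Beside Ccl5, Ccl6 rose while Ccl9 did not pass the test, and Taf15, a nearby gene of an RNA-binding protein, did not pass either (log2 fold change -0.05). Mmp28, a metalloproteinase gene next to Taf15, fell from 37, 55 and 75 counts to 2, 5 and 2 counts (log2 fold change -4.09), and Tmem98, the nearest tested gene before Ccl2, fell too (-1.61). Cx3cl1 lies between Ccl22 and Ccl17, of which Ccl22 had 0 counts in all libraries and Ccl17 had 4 to 12 counts in control and 0 in the others. Farther from Cx3cl1, Dok4, Pllp and Coq9 fell (log2 fold changes -2.14, -1.76 and -1.17), and Fam192a, Rspry1 and Polr2c fell by less. Ciapin1 and Arl2bp rose there (0.49 and 0.20). Near Cxcl16, Arrb2, Zmynd15 and Psmb6 fell (-1.10, -0.49 and -0.24), Pelp1 rose (0.67), and Med11 and Alox12e did not pass. Neighbours thus had unlike values, both among chemokines and at the cluster edges, although some genes near Cx3cl1 and Cxcl16 were lower as well.

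**Figure D4:**
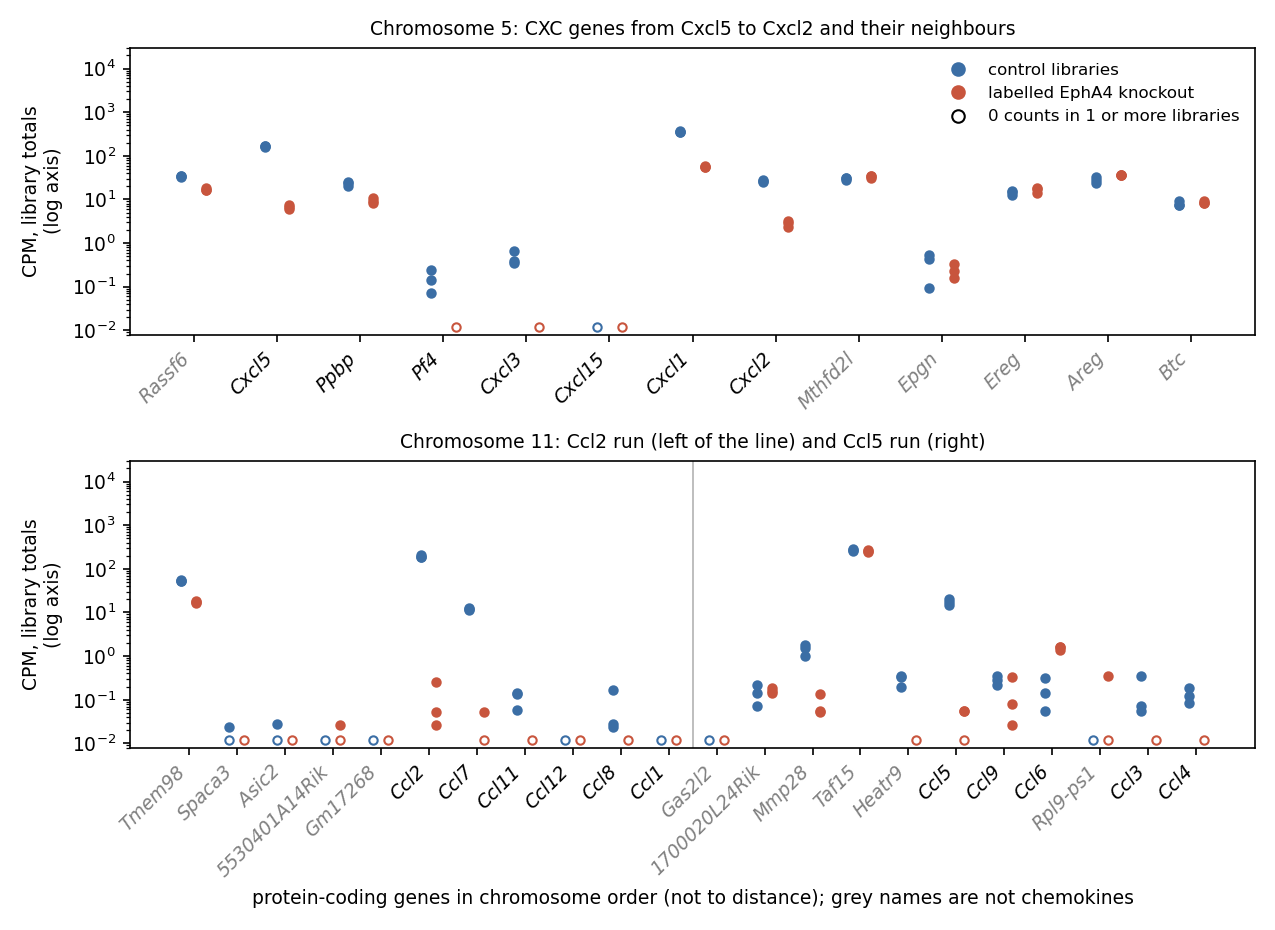
CPM by library totals, on a log axis, of protein-coding genes in chromosome order around the chemokine clusters of chromosome 5 (top) and chromosome 11 (bottom), with control libraries in blue, knockout-labelled libraries in red and open circles for 0 counts. The red points of Cxcl5, Cxcl1, Cxcl2, Ccl2, Ccl7 and Ccl5 lie below the blue ones, while those of Mthfd2l, Ereg, Areg, Btc and Taf15 lie beside or above them.

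Upstream sequence was available for 5 members and was searched for short motifs, and the promoters that held a match to the NF-kB motif are printed below. Each is the stretch of 250 bases before the start of the gene, from RefSeq on build GRCm38.p6, and capitals mark motif matches.
Cxcl1, chr5:90890995-90891244, plus strand: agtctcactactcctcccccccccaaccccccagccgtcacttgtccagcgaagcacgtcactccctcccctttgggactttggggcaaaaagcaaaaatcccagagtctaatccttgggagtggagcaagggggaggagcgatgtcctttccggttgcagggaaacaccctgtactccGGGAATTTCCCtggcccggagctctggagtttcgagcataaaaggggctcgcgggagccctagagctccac
Cxcl2, chr5:90903649-90903898, plus strand: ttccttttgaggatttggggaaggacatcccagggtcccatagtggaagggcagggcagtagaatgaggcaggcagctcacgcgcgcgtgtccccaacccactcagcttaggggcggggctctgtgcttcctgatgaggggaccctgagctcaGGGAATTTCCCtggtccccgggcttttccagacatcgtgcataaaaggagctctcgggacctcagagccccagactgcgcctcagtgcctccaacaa
Ccl20, chr1:83116516-83116765, plus strand: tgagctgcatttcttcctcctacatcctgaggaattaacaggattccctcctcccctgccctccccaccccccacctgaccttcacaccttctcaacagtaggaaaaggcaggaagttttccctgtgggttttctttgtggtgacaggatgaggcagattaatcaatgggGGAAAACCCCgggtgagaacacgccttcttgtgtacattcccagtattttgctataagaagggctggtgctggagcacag
Cxcl10, chr5:92348890-92349139, minus strand: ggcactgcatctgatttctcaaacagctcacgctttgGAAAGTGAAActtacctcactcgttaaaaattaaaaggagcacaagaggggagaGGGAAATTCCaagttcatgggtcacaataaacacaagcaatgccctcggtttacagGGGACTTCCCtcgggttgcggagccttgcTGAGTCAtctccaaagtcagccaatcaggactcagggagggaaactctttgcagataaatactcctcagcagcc
A match to the NF-kB motif was found in 4 of the 5 (Cxcl1, Cxcl2, Ccl20 and Cxcl10), and in 3.9% of 32841 promoters of the same length. In Cxcl1 and Cxcl2 it consisted of 2 matches that overlap and differ by 1 base in start, the first from 71 and 97 bases before the gene's start. Ccl20 held 1 match, 80 bases before the start, and Cxcl10 held 2 separate ones, 159 and 103 bases before it. Cxcl10 also held the interferon-stimulated response element (GAAA 2 times with 2 bases between), present in 2.98% of promoters, and the AP-1 motif (TGANTCA), present in 6.75%. The GAS motif (TTCNNNGAA), present in 7.02%, matched no member. The letters TATAAA of a TATA box, present in 7.59%, matched Cx3cl1, from 6 to 1 bases before the start. Only these exact letters were counted, at any place in the stretch, so a match there does not show a working TATA box. Near forms, such as CATAAA in the printed Cxcl1 and Cxcl2 stretches, were not counted. All motifs were searched on both strands except TATAAA, which was searched on the strand of the gene. The 4 members with an NF-kB match had log2 fold changes of -2.65 (Cxcl1), -3.20 (Cxcl2), -3.84 (Ccl20) and -8.60 (Cxcl10), and Cxcl10 was the member of these 4 with an interferon element. A match is a description of the letters and not a shown binding site.

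Many chemokine transcripts carry AU-rich elements in the 3′ untranslated region, which are known to mark them for rapid decay. Cxcl2 had 11 copies of the pentamer ATTTA (15.0 per kilobase), Ccl20 had 9 (8.57) and Cxcl1 had 7 (11.8), beside a median of 1.26 per kilobase over 12117 tested genes. Only 0.314%, 1.53% and 0.611% of those genes had as many per kilobase as these 3. The longer form TTATTTATT occurred 4 times in Cxcl2, 2 times in Cxcl1 and 1 time in Cx3cl1, and in 7.58% of the tested genes. The members that were nearly absent had 1 pentamer in Ccl2 (3.64 per kilobase), 2 in Ccl7 (4.60), 2 in Cxcl10 (2.74) and 0 in Ccl5. Ccl2, Ccl7 and Cxcl10 were thus also above the median density. The remaining members had 5 (Cxcl5, 4.50 per kilobase), 2 (Cxcl16, 1.41) and 1 (Cx3cl1, 0.534). The 3 densest members were lower by 6.29-fold to 14.3-fold. Low densities were found both in Ccl5, which was nearly absent, and in Cxcl16 and Cx3cl1, which had the smallest falls. A relation between density and fold change was not tested.

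Other chemokine ligands were scarce in these cells. Of 28 further ligand genes, 9 had 0 counts in all 6 libraries and 7 passed the filter. Of these 7, 4 were lower, 2 higher and 1 did not pass, beside 38.8% lower and 32.7% higher of all tested genes. The median log2 fold change of the 7 was -1.30. Cxcl3, Cxcl11 and Ccl28 passed the filter through their control counts, and Ccl6 through its knockout-labelled counts. For these genes the filter largely fixed the direction. Ppbp, a platelet chemokine gene next to Cxcl5, fell from 23.0 ± 2.27 to 9.35 ± 1.19 CPM (SD, n = 3 each). Cxcl11 had 51, 34 and 32 control counts against 1, 0 and 0 in the others, a ratio of 113-fold (95% counting interval 19.9 to 4503). Ccl28, a mucosal chemokine gene, had 109 counts over the control group and 1 over the other (105-fold, interval 18.5 to 4198). Cxcl3, a CXCR2 ligand gene like Cxcl1 and Cxcl2, had 55 counts over the control group and 0 in the knockout-labelled one, which makes it at least 17.7-fold lower by the same floor.

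Ccl6 and Ccl25 went up. Ccl6 had 2, 5 and 13 counts in control and 58, 60 and 51 counts in the knockout-labelled libraries (log2 fold change 3.15, SE 0.55, adjusted p = 0.00079), still only 1.55 ± 0.14 CPM. Ccl25, the ligand of CCR9, had 593, 613 and 649 counts in control and 704, 725 and 792 counts in the knockout-labelled libraries (log2 fold change 0.32, SE 0.08, adjusted p = 0.0081), and it no longer passed when genes of low count were kept in (adjusted p = 0.054). Ccl9 had 8, 12 and 12 counts in control and 12, 1 and 3 counts in the others (log2 fold change -0.92, adjusted p = 0.35), and without EphA4 knockout replicate 1 the log2 fold change of Ccl9 passed as lower (-2.30, adjusted p = 0.049). The lower level was thus not shared by every chemokine gene that was measured.

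Chemokine receptors were mostly not detected. Of 23 receptor genes 12 had 0 counts in all libraries and 2 passed the filter. Both were lower, beside 38.8% of all tested genes. Ccrl2 passed the filter through its control counts, so the filter largely fixed its direction. Ackr3, an atypical receptor that takes up CXCL12, had 696, 619 and 735 counts in control and 66, 60 and 67 counts in the knockout-labelled libraries (log2 fold change -3.35, SE 0.13, adjusted p = 6.6e-08). Ccrl2, a receptor-like protein that holds chemerin at the surface, had 65, 73 and 58 counts in control and 0, 4 and 3 counts in the others. CCR2, CCR6 and CXCR6, the receptors for Ccl2, Ccl20 and Cxcl16, had 0 counts of their genes Ccr2, Ccr6 and Cxcr6 in all 6 libraries.

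The NF-kB genes did not move as one with the chemokines. Of 17 tested, 6 were lower and 10 higher, beside 38.8% and 32.7% of all tested genes, with a median log2 fold change of 0.29. The subunit genes Rela and Nfkb1 rose, from 131 ± 3.03 to 199 ± 3.72 CPM and from 120 ± 9.03 to 159 ± 6.60 CPM (SD, n = 3 each), as did the kinase genes Map3k7 and Chuk and the inhibitor gene Nfkbie (log2 fold changes 0.94, 0.77 and 0.94). The subunit gene Relb and the kinase gene Ikbkb fell (-0.65 and -0.51). Also lower were Bcl3, a nuclear cofactor (log2 fold change -3.97), the inhibitor gene Nfkbia (-2.04) and Nfkbiz (-0.93). Among the others called higher were Nfkb2, Rel and Tnfaip3 (log2 fold changes 0.31, 0.57 and 0.15). Nfkbia had 138, 129 and 121 CPM in control and 31.6, 32.4 and 30.5 CPM in the knockout-labelled libraries.

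Receptors and adaptors for TNF, IL-1, IL-17, microbial signals, oncostatin M and IL-6-type cytokines were lower in 11 of 19 and higher in 5. Over all tested genes, 38.8% were lower and 32.7% higher. The median log2 fold change of the list was -0.30. Osmr, the oncostatin M receptor gene, had 107, 85 and 56 counts in control and 0 in the knockout-labelled libraries, which makes it at least 79.9-fold lower by the same floor. Osmr passed the filter through its control counts. Tnfrsf1b and Tlr2 fell by 3.23 and 2.03 on the log2 scale. The adaptor genes Ripk1 and Traf6 and the shared receptor gene Il6st rose (log2 fold changes 0.79, 0.62 and 0.57).

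Interferon pathway factors were lower in 15 of 18 and higher in 0, beside 38.8% and 32.7% of all tested genes. Their median log2 fold change was -1.63. Jak1, Mavs and Tbk1 did not pass the test (log2 fold changes 0.03, -0.15 and 0.13). Tmem173, which encodes the DNA-sensing adaptor STING, had 1538, 1266 and 1310 counts in control and 7, 7 and 1 counts in the knockout-labelled libraries. Tmem173 passed the filter through its control counts. The log2 fold changes were -6.66 for Irf7, -3.93 for Ifih1, -2.08 for Irf1 and -0.50 for Irf3, all called lower. Irf1, an activator of Cxcl10 and Ccl5, had 153, 157 and 149 CPM in control and 36.1, 35.9 and 36.4 CPM in the others, so that its groups were well apart.

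Factors of mRNA decay went both ways, with 5 of 11 lower and 6 higher, beside 38.8% and 32.7% of all tested genes. Their median log2 fold change was 0.33. Zfp36 (tristetraprolin) and Zfp36l1, which bind AU-rich elements and promote decay, fell by 1.08 and 1.51 on the log2 scale, and Zc3h12a, the endonuclease Regnase-1, fell by 2.28. Zc3h12c, Hnrnpd and Rc3h1 rose (log2 fold changes 1.32, 1.22 and 1.21), and Elavl1, which stabilises such transcripts, rose by a log2 fold change of 0.33. Of the genes for shedding and surface holding of chemokines, 11 were tested, 8 lower and 2 higher, against the same shares of all tested genes. The median log2 fold change of these 11 was -0.60. Adam10, a sheddase of Cxcl16 and Cx3cl1, did not pass (log2 fold change -0.06, adjusted p = 0.17), but the log2 fold change of Adam10 passed as lower when genes of low count were kept in (-0.13, adjusted p = 0.027), and Adam17 fell by 0.31 on the log2 scale. The proteoglycan genes Sdc3 and Sdc2 and the ADAM17 partner gene Rhbdf1 fell by 2.83, 1.16 and 1.07, while Ndst1 and Sdc1 rose (log2 fold changes 0.63 and 0.13), and Sdc1 no longer passed when genes of low count were kept in.

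**Figure D5:**
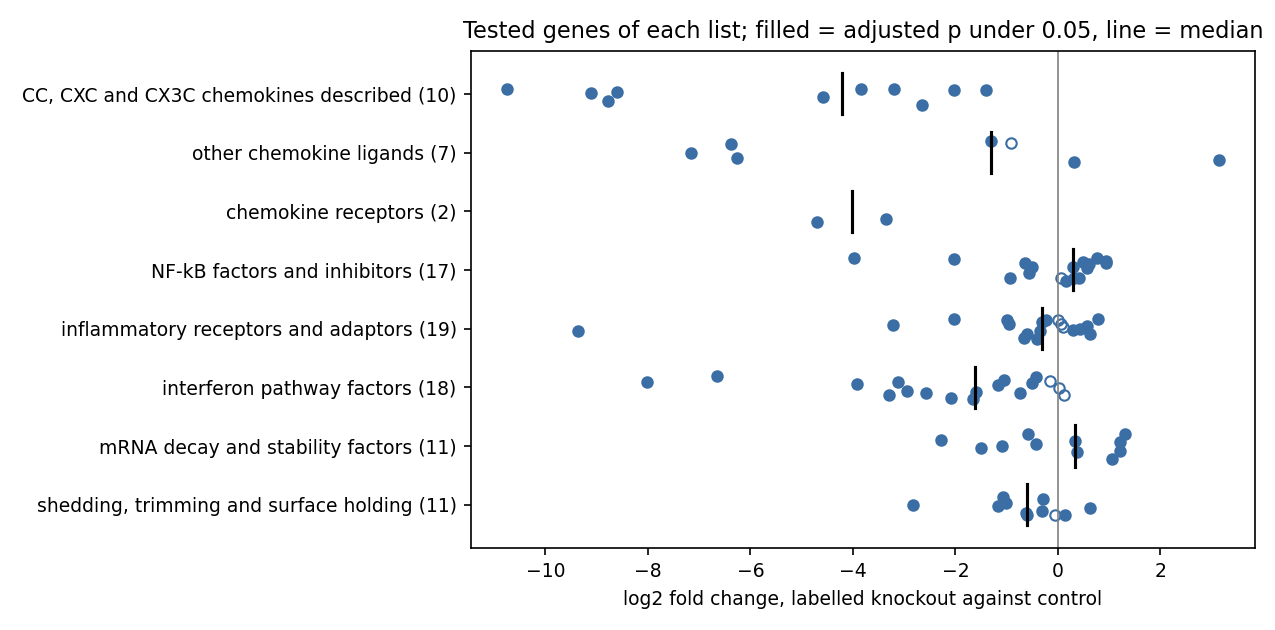
Log2 fold changes of the tested genes of each list, with the number tested in brackets, filled circles for an adjusted p under 0.05, open circles for genes that did not pass and a line for the median. All 10 chemokines described lie left of 0 (median -4.22), the interferon factors lie left of 0 apart from 2 open circles (median -1.63), and the NF-kB and mRNA decay lists lie on both sides (medians 0.29 and 0.33).

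Some genes had a profile over the 6 libraries close to that of a chemokine, measured as the root mean square difference of log2 CPM after centring each gene. The nearest tested gene was Nos2 for Ccl2 (0.14), Rassf3 for Ccl7 (0.14), Tmem173 for Ccl5 (0.20) and Adgra2 for Cxcl10 (0.23). It was Pdcd4 for Ccl20 (0.07), Traf5 for Cxcl1 (0.05), Inpp5j for Cxcl2 (0.08) and Aldh3a1 for Cxcl5 (0.06). For the membrane-bound chemokines it was Thra for Cxcl16 (0.03) and Nfkbia for Cx3cl1 (0.03). With 2 groups and 6 libraries this measure mostly reflects a like difference between the groups. Nos2, which encodes inducible nitric oxide synthase, had 5550, 5782 and 6376 counts in control and 7, 0 and 1 counts in the knockout-labelled libraries.

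Markers of other cell types that make or answer chemokines were read in the same libraries. Fibroblast and pericyte markers were lower in 7 of 7 tested, of 11 listed, beside 38.8% of all tested genes. Dcn and Fap had 0 counts in the knockout-labelled libraries, and Pdgfrb and Rgs5 at most 1 in any of them. These passed the filter through their control counts, so the filter largely fixed their direction. The summed level of the list was 50.6 to 53.8 CPM in control and 1.96 to 2.07 CPM in the knockout-labelled libraries. Of these, Col1a1 and Col3a1 had 14.8 and 20.6 CPM in control. Lum had 0 counts in all libraries, while Postn had 0 to 1 counts per control library. Col1a2 did not pass the filter and went the other way without overlap. Each control library held 0 to 4 of its counts, each knockout-labelled one 8 to 11. The part of such cells in the chemokine values was not tested. Leukocyte markers had 2 of 16 tested, Ly6g lower and Csf1r higher, with a summed level of 22.6 to 28.0 CPM in control and 8.21 to 9.72 CPM in the others. Cd3e, Cd3d, Nkg7, Adgre1, Itgam, S100a9 and Tyrobp had 0 counts in all 6 libraries, and Ptprc had 1 to 10 counts in control and 7 to 18 in the knockout-labelled libraries. Endothelial markers summed to 1.33 to 1.62 CPM in control and 0.60 to 1.25 CPM in the others, with 1 of 7 tested and 0 called. Genes listed as squamous epithelial markers summed to 4797 to 4828 CPM in control and 5339 to 5346 CPM in the knockout-labelled libraries. Of 14 tested, 9 were higher and 4 lower, beside 32.7% and 38.8% of all tested genes. Krt8, Epcam, Krt18 and Cdh1 had the highest levels, with 1340, 954, 843 and 725 CPM in control. Krt14, Dsg3 and Krt6a had 3.72, 0.33 and 0.27 CPM there, so the sum does not show abundant squamous markers.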

How the data were processed

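RNA-seq counts of 6 MOC2 samples were used, 3 per group, grouped by the sample titles. The values are counts as the authors deposited them, in a single table by gene symbol and not normalized. The aligner STAR and the build GRCm39 come from the submitters' processing notes. Not given in the sources used here were versions, the counting tool and its strand setting. The 55418 symbols equal those of GENCODE M21, which gave chromosomes, gene order, transcript lengths and coding sequences; promoters came from RefSeq on GRCm38.p6, an earlier build than the one named, so they are matched by symbol only.

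Genes were filtered with filterByExpr (15199 of 28042 with any count), scaled by TMM and tested with edgeR 4.0.16 in R 4.3.3 (quasi-likelihood, group as the only term, two-sided, Benjamini-Hochberg over all tested genes, threshold 0.05). Each SE was obtained as |log2 fold change| over the root of F. CPM are TMM-scaled unless named otherwise. Log2 CPM for the nearest profiles used a prior count of 2. Floors of 3 counts and 95% exact binomial intervals on library totals cover counting error only. No 2 libraries were alike beyond sampling noise (lowest chi-square over its degrees of freedom 4.63).

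The members and gene lists were chosen with earlier results of these data known, so no list test was made. Named genes were Epha4, the 10 members, the tested ligands and receptors, the 3 largest called changes per direction of each other list, 10 fixed genes and the nearest profiles; some items are not reported here. Relb, Ikbkb, Nfkb2, Rel, Tnfaip3 and neighbours on the chromosome were named in addition, after their values were seen. So were untested ligands and receptors, and cell type markers. Alternatives were other scaling factors, other filters, DESeq2 1.42.0, limma-voom (limma 3.58.1), a replicate block, a stricter threshold and each library left out. The edgeR script was tested on simulated counts with known changes. Figures were drawn with matplotlib 3.10.9.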

Additional observations from a re-analysis of the deposited data

How the results depend on the processing

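All 10 chemokines stayed called as lower under each of the 15 alternatives, with the replicate block (10 of 10) and with each library left out (10 of 10 each time). The range over these settings was -12.11 to -10.29 for Ccl2 (log2 fold change), -9.17 to -8.18 for Ccl5, -11.78 to -8.59 for Ccl7 and -1.46 to -1.33 for Cxcl16, those of Ccl2, Ccl5 and Ccl7 reached when a knockout-labelled library was left out. Replicate numbers did not pair the samples: deviations of same-numbered libraries correlated at -0.00286, 0.0291 and 0.00829 over genes, not every sample correlated best with its own number, and the replicate block gave 5715 for all genes called lower and 4624 for all genes called higher, beside 5904 and 4963 without it. Without a filter on low counts, the other chemokine ligands had 8 lower and 1 higher, the receptors 4 lower, and the shedding list 1 higher; here more genes are tested. With at least 5 CPM in 3 libraries, the ligands had 1 lower and 1 higher and the receptors 1 lower, since fewer genes are tested. DESeq2 called 4 receptors lower. With relative log expression factors 1 interferon factor was higher, and with a library left out 0 to 1 were, the 1 being without control replicate 3; the cause was not tested. Depth limits Ccl2, Ccl5, Ccl7 and Cxcl10 in the knockout-labelled libraries, where 2 to 20 counts per group leave the size of the fold uncertain but not the call.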

Other observations

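A few genes had counts in EphA4 knockout replicate 3 and in no other library. Ccr4, a chemokine receptor gene of T cells, had 6 counts there and 0 in the other 5 libraries. Rpl9-ps1, an entry named as a ribosomal protein pseudogene near Ccl5, had 13 counts there and 0 elsewhere. Of the chemokines described, Ccl7 had its 2 remaining knockout-labelled counts in that library.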
